A study of Mus musculus with 7 samples.

Results

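The 9 genes described here carry signals of transforming growth factor beta (TGF-beta) and interleukin 10 (IL-10): Tgfb1, Tgfbr1, Tgfbr2, Tgfbi, Smad3, Smad7, Il10, Il10ra and Il10rb. They were taken by name from the 55491 gene rows of a UMI matrix, and all 9 were present. The matrix holds 28644 cells of 7 mice with intracranial CT-2A glioma, a mouse glioma line. The cells came from the hemisphere with the tumour, were frozen and thawed, sorted as live cells positive for CD45, CD11b or both, and read by 10x 5′ single-cell RNA sequencing, with 1 library per mouse. The 4 KO mice were Sall1CreERT2 x Siglecefl/fl, so that the Cre needs the Sall1 promoter, active in microglia, and tamoxifen to delete Siglece. The 3 WT mice carried Siglecefl/fl without the driver. Mice of both genotypes were injected with tumour at 8 to 12 weeks of age and received tamoxifen (2.5 mg per injection, daily from day 7 and on alternate days from day 21), so the WT mice lack only the driver.

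TGF-beta is a secreted cytokine that is stored in a latent form and, once released, joins the type II receptor Tgfbr2 to the type I receptor Tgfbr1, which phosphorylates Smad2 and Smad3. Smad7 is induced by the same pathway and inhibits it, and Tgfbi is a secreted matrix protein first found as a TGF-beta-induced gene. In the brain, TGF-beta is needed to keep the identity of microglia. IL-10 binds the ligand-specific chain Il10ra, which pairs with Il10rb, a chain shared with other cytokines of the family, and acts through Jak1, Tyk2 and Stat3 to restrain macrophages and dendritic cells.

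The libraries held 1410 to 5856 cells and 16037214 to 38966377 UMIs, with a median of 4479 to 9554 UMIs per cell. Of 28178 distinct barcodes, 460 (1.63%) occurred in more than 1 library. Siglece had 2, 1, 0 and 0 UMIs in the microglia of KO replicates 1 to 4 and 20, 19 and 7 in those of WT replicates 1 to 3, which had more microglial UMIs. Per 1000000 UMIs this was 10.7, 19.6, 0 and 0 in KO and 36.1, 45.9 and 18.6 in WT mice, so that KO replicate 2 lay within the WT range. In monocyte-derived cells Siglece was at 48.7, 41.8, 44.8 and 41.0 per 1000000 UMIs in KO and 51.0, 52.9 and 26.6 in WT mice, which overlapped. The authors' 23 cell type names were used as given, and for the wider comparisons joined into 9 classes. Of the markers checked, 7 of 8 were highest in the matching class for microglia, 5 of 9 for monocyte-derived cells, 4 of 5 for monocyte-derived dendritic cells (mo-DCs), 6 of 8 for conventional dendritic cells, 6 of 6 for plasmacytoid dendritic cells (pDCs), 5 of 7 for T cells, 5 of 5 for NK cells, 4 of 4 for B cells and 5 of 6 for tumour or stromal cells. For regulatory T cells (Tregs) and gamma-delta T cells the matching class was all T cells, where 4 of 4 and 1 of 2 were highest. By single type, Foxp3, Il2ra, Ikzf2 and Ctla4 were highest in Tregs. Trdc (352 CPM) and Cd163l1 (1308 CPM) were highest in gamma-delta T cells, although by class Trdc was highest in NK cells. A level is given in CPM, the UMIs of the gene per 1000000 UMIs of those cells in 1 mouse, as mean ± SD over the mice with at least 20 cells of the type, KO and WT together. For microglia these are the 3 WT mice alone, since the KO libraries held 0 to 15 such cells, so close ranks beside microglia compare WT mice with mice of both genotypes. How the types were named is not given in the sources used here, so levels across types are a description with no test.

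Tgfb1 (chromosome 7, 25687002 to 25705077, GRCm38), the ligand, was read in every cell type and had the flattest profile of the 9 genes. It was highest in NK cells at 573 ± 168 CPM (n = 7), followed by monocytes at 462 ± 149 CPM (n = 7) and exhausted CD8 T cells at 422 ± 43.9 CPM (n = 6). The Tregs, with 406 ± 52.5 CPM (n = 6), stood level with the proliferating CD4, Tfh and Th1 cells at 401 to 408 CPM. Microglia had 323 ± 23.0 CPM (n = 3). The lowest levels were 99.0 ± 15.5 CPM in cDC2 (n = 7) and 87.6 ± 23.1 CPM in tumour or stromal cells (n = 5), so that the highest and the lowest type differed 6.54-fold. For none of the 22 pairs of neighbours in this order did the means differ by more than the spread between mice. By cell number and depth together, T cells gave 39.8% of all Tgfb1 UMIs and monocyte-derived cells 29.4%, beside 35.5% and 26.2% of all UMIs.

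**Figure D1:**
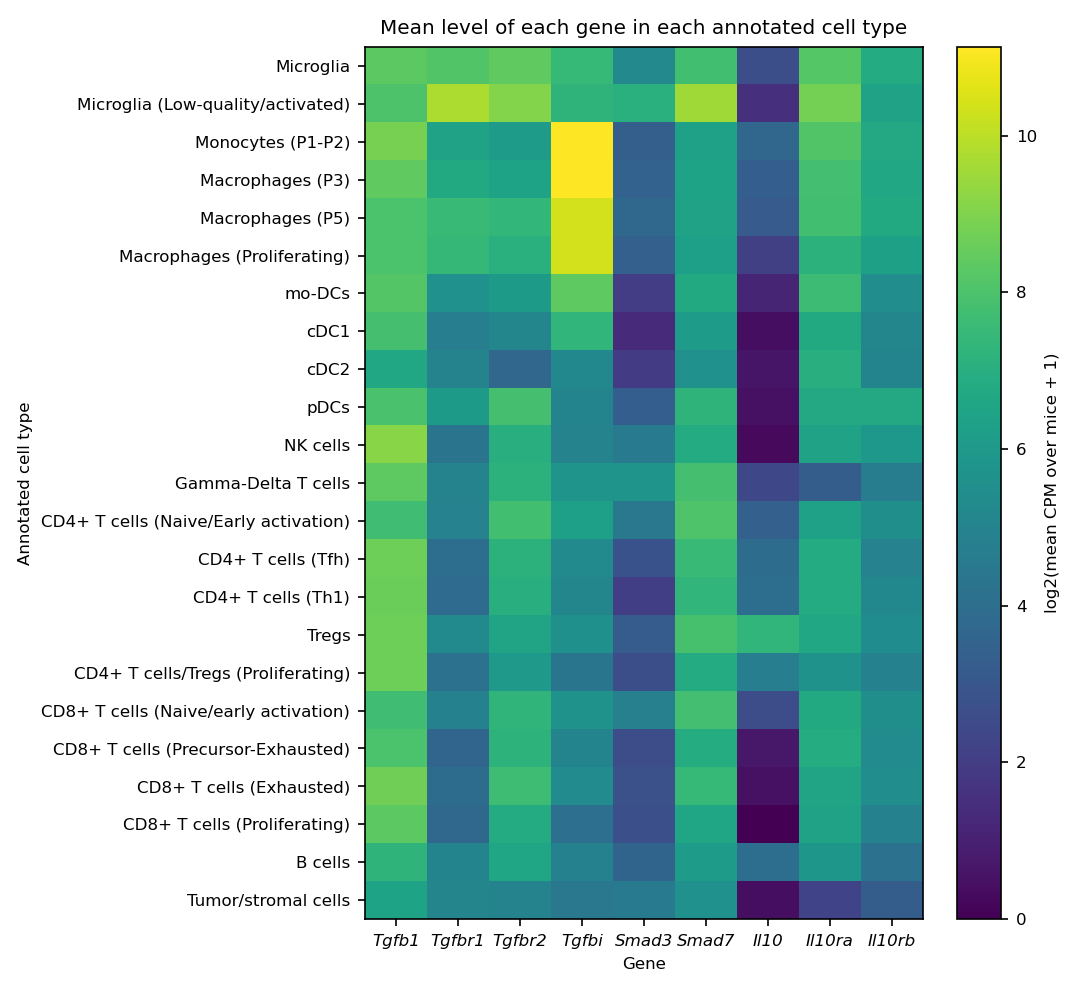
Mean level of the 9 genes (columns) in the 23 annotated cell types (rows), as log2 of the mean CPM over mice plus 1. Colours are to be read down a column: Il10 is brightest in Tregs, Tgfbi in monocytes and macrophages, and Tgfbr1, Tgfbr2, Smad3 and Smad7 in the low-quality/activated microglia.

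The receptors were led by microglia. Tgfbr1, the type I receptor kinase, was at 277 ± 105 CPM in the microglia (n = 3) and at 865 ± 152 CPM in the type that the authors named low-quality/activated microglia (n = 5). The lowest of those 5 values, 643 CPM, lay above every value in any other type. Macrophages P5 and proliferating macrophages followed at 182 ± 35.9 and 169 ± 32.4 CPM, macrophages P3 at 106 ± 30.5 CPM, and the T cell types lay between 11.3 and 37.7 CPM. Tgfbr2, the type II receptor that binds the ligand, had the same top pair, at 530 ± 62.5 CPM in the low-quality microglia and 339 ± 52.6 CPM in the microglia, with no overlap of either with the types below. Its further order differed from that of Tgfbr1: pDCs at 228 ± 43.0 CPM, naive CD4 T cells at 213 ± 22.7 CPM and exhausted CD8 T cells at 203 ± 22.1 CPM stood above macrophages P5 at 163 ± 21.0 CPM. The dendritic types spanned most of the range of Tgfbr2, since cDC1 had 33.3 ± 5.38 CPM and cDC2, the lowest type, 11.7 ± 5.69 CPM.

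Smad3, the signal transducer, was the sparsest gene after Il10, with 1780 UMIs in all. It was highest in the low-quality microglia at 135 ± 44.7 CPM (n = 5), then in gamma-delta T cells at 52.7 ± 19.6 CPM (n = 4, from 3 to 24 UMIs per mouse) and microglia at 37.3 ± 5.71 CPM (n = 3). Naive CD8 T cells (27.9 ± 6.97 CPM) and naive CD4 T cells (21.2 ± 7.71 CPM) stood above the precursor-exhausted and exhausted CD8 T cells (5.17 ± 5.27 and 5.74 ± 4.65 CPM). The conventional and monocyte-derived dendritic cells had 1.54 to 3.01 CPM. Smad7, the inhibitor, was highest in the low-quality microglia at 750 ± 198 CPM, without overlap with any other type. Naive CD4 T cells (268 ± 50.5 CPM), Tregs (238 ± 52.8 CPM), gamma-delta T cells (229 ± 68.3 CPM), naive CD8 T cells (224 ± 71.9 CPM) and microglia (215 ± 53.3 CPM) came next and overlapped. cDC2 was lowest at 48.3 ± 8.80 CPM.

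Tgfbr1, Tgfbr2 and Smad3 thus shared their highest type, and the 250 bases before their RefSeq start sites (GRCm38.p6) are shown for that reason. Of the 9 genes, 5 had an entry in the RefSeq promoter table; Il10, Il10ra, Il10rb and Smad7 had none. 14 short motifs were searched on both strands, and capitals mark every match: GGCGCC and GGGCGG in Tgfbr1, CAGAC and GAGGAA in Tgfbr2, and GGGCGG in Smad3.
Tgfbr1, chr4:47352972-47353221, plus strand: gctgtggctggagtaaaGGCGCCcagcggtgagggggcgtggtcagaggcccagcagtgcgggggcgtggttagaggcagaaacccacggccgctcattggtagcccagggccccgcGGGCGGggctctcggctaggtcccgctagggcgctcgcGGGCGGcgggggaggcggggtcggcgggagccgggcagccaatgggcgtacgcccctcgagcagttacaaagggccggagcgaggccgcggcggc
Tgfbr2, chr9:116175364-116175613, minus strand: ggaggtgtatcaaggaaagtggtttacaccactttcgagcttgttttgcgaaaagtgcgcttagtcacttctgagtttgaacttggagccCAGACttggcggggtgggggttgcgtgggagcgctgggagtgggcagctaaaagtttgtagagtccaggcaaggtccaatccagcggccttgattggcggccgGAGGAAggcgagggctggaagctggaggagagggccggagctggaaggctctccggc
Smad3, chr9:63757995-63758244, minus strand: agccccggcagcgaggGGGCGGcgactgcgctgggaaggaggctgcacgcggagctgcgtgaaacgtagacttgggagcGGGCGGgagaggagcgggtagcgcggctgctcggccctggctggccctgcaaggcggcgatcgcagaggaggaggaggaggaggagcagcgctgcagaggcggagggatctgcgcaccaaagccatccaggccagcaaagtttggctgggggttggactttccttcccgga
No motif was found in all 3 windows. GGGCGG, the core of the Sp1 site, was in 2 of them and in 32.7% of the 32851 windows of the table. CAGAC, the Smad box, was in 1 and in 42.2% of all windows, GAGGAA, the core of the PU.1 site, in 1 and in 23.3%, and GGCGCC, a GC-rich Smad site, in 1 and in 9.59%. The other 10 motifs were in none of the 3 windows: GTCTAGAC (in 0.167% of all windows), CAGACA (17.1%), TGACTCA (4.46%), TTCNNNGAA (7.02%), TATAAA (12.4%), GAGGAAGT (2.44%), the NF-kB site (28.4%), TGCTGA (16.1%), CACGTG (6.02%) and TGACGTCA (1.55%). CAGACA and GAGGAAGT contain shorter motifs of the same search. The GC content of the windows was 74.8%, 58.4% and 69.2%.

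The low-quality microglia stood at the top for 5 of the 9 genes, and their cells differed in quality from the other microglia, with a median of 2222 UMIs and 4.77% mitochondrial UMIs per cell against 6226 UMIs and 2.06%. The 3 WT mice had at least 39 cells of both types, which allowed a comparison within each mouse. Smad7 was 6.19, 2.33 and 3.61 times as high in the low-quality cells as in the microglia of WT replicates 1 to 3, Tgfbr1 2.55, 2.53 and 4.11 times, Smad3 3.97, 4.54 and 1.61 times and Tgfbr2 1.50, 1.55 and 1.78 times. Il10ra went both ways, at 1.78, 0.950 and 1.53 times. Tgfb1, Tgfbi and Il10rb were lower in the low-quality cells of every one of these mice, at 0.580 to 0.744, 0.449 to 0.693 and 0.543 to 0.716 times. Over the 3562 genes with a mean of at least 50 CPM, 14.2% were more than 2-fold higher in the low-quality cells of each mouse and 11.3% more than 2-fold lower. Malat1, a nuclear RNA, was 3.02 to 3.59 times as high there, and Gapdh, a cytoplasmic enzyme, 0.216 to 0.550 times. These genes and limits were chosen after the values were seen, and the part of cell quality in the levels was not tested.

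**Figure D2:**
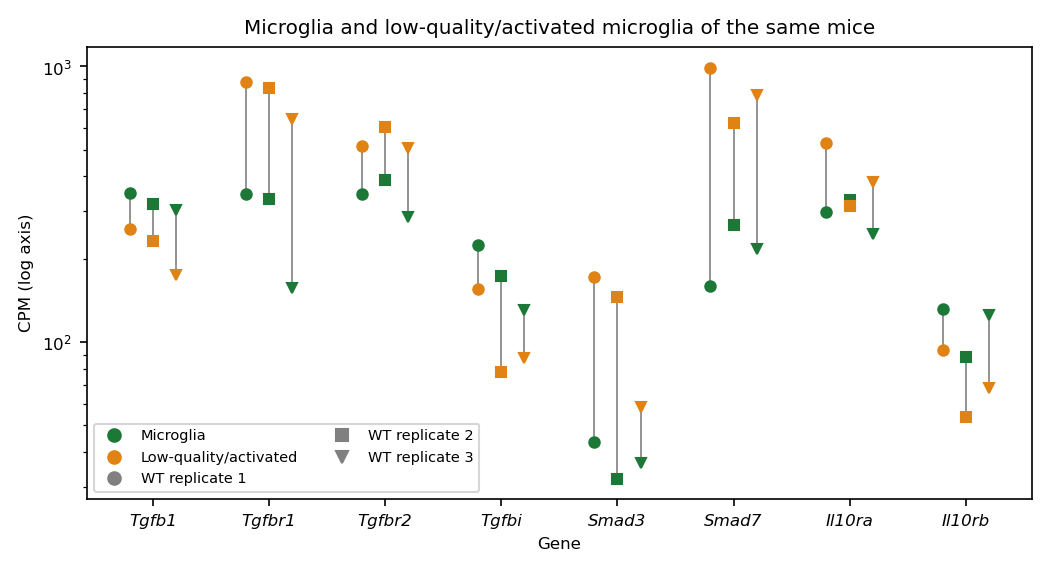
CPM (log axis) of 8 genes in the microglia (green) and the low-quality/activated microglia (orange) of the 3 WT mice, 1 symbol per mouse, with a line joining the values of a mouse. Tgfbr1, Tgfbr2, Smad3 and Smad7 are higher in the orange symbols of every mouse, Tgfb1, Tgfbi and Il10rb in the green ones, and Il10ra differs in direction between mice.

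Tgfbi (chromosome 13, 56609523 to 56639562) marked the monocyte lineage. It was at 2244 ± 410 CPM in monocytes P1-P2 (n = 7), 2207 ± 440 CPM in macrophages P3 (n = 7), 1322 ± 366 CPM in proliferating macrophages (n = 6) and 1311 ± 243 CPM in macrophages P5 (n = 7). The lowest value among these 4 types, 831 CPM, lay above the highest among all other types, 429 CPM in mo-DCs, whose mean was 331 ± 83.8 CPM. Microglia had 177 ± 47.2 CPM and cDC1 161 ± 63.0 CPM. Monocyte-derived cells gave 86.8% of all Tgfbi UMIs with 26.2% of all UMIs. In T, NK and B cells together Tgfbi was at 22.0 to 67.2 CPM per mouse, which was 0.00999 to 0.0399 of its level in the monocyte-derived cells of the same mouse. Lyz2, a myeloid lysozyme gene, stood at 0.0113 to 0.0375 of its monocyte-derived level in the same lymphoid cells, and both ratios were highest in KO replicate 2. The part of RNA free in the suspension in these lymphoid values was not tested.

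Il10 (chromosome 1, 131019845 to 131024974) was concentrated in Tregs, with 159 ± 34.2 CPM (n = 6) and a lowest value of 124 CPM. The next type, proliferating CD4 T cells and Tregs, had 26.4 ± 13.4 CPM and a highest value of 40.5 CPM, so the Treg mean was 6.02 times as high and no value overlapped. Th1 cells, B cells and Tfh cells followed at 15.4 ± 13.2, 15.4 ± 13.2 and 14.5 ± 8.25 CPM. Among myeloid types, monocytes had 11.6 ± 8.05 CPM, macrophages P3 8.97 ± 6.87 CPM, macrophages P5 8.30 ± 4.02 CPM and microglia 5.47 ± 2.43 CPM, the last from 5 UMIs in 131 cells. Conventional dendritic, plasmacytoid dendritic and NK cells had means of 0.215 to 0.565 CPM. In proliferating CD8 T cells there was no Il10 UMI among 5246156, which allows a level of up to 0.572 CPM. The gene was read in only 824 cells, with 1690 UMIs in all, of which T cells gave 61.7% and monocyte-derived cells 28.0%.

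Within Tregs the Il10 UMIs were unevenly spread over the cells. A UMI was found in 290 of 1058 Tregs, or 27.4% (exact binomial 95% interval 24.7 to 30.2, counting error only), at a median of 3376.5 UMIs per cell, and the 10% of Tregs with the most Il10 UMIs held 67.3% of them, up to 19 in 1 cell. In precursor-exhausted CD8 T cells the share was 0.512% (0.335 to 0.750) at a deeper median of 5568.5 UMIs, and 1 of 909 NK cells had a UMI at a median of 5126 UMIs. Whether these low shares come from free RNA or from the cells was not tested. With every cell thinned to 1500 UMIs the shares were 17.0% of Tregs (21 shallower cells left out) and 0.158% of precursor-exhausted CD8 T cells (8 left out). B cells went from 8.69% to 0.608% under the same thinning, and monocytes from 3.35% to 1.25%.

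The IL-10 receptor was distributed unlike its ligand. Il10ra (chromosome 9, 45253837 to 45269149) was highest in the low-quality microglia at 451 ± 106 CPM, in microglia at 290 ± 40.3 CPM and in monocytes at 279 ± 51.0 CPM, and then stepped down through macrophages P3 (226 ± 67.8 CPM), macrophages P5 (217 ± 46.4 CPM) and mo-DCs (198 ± 49.3 CPM). The Tregs, the main source of Il10 UMIs, had 100 ± 26.5 CPM, within the 82.5 to 117 CPM of the other T cell types that were neither proliferating CD4 nor gamma-delta T cells. Gamma-delta T cells stood far below these at 8.86 ± 7.11 CPM (n = 4, from 5 UMIs in all). Tumour or stromal cells, with 3.67 ± 0.758 CPM, were lowest, 123 times below the highest type. Il10rb (chromosome 16, 91406164 to 91425834) had a narrower range, from 115 ± 23.5 CPM in microglia (WT mice) and 107 ± 22.3 CPM in macrophages P5, which do not differ beyond their spread, through 28.5 to 45.9 CPM in the alpha-beta T cell types to 8.63 ± 2.54 CPM in tumour or stromal cells. Of its UMIs, 21.0% came from values that were not whole numbers, against none for the other 8 genes. Another protein-coding gene, Gm21970, overlaps it on the same strand, so its level is uncertain where reads were shared.

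**Figure D3:**
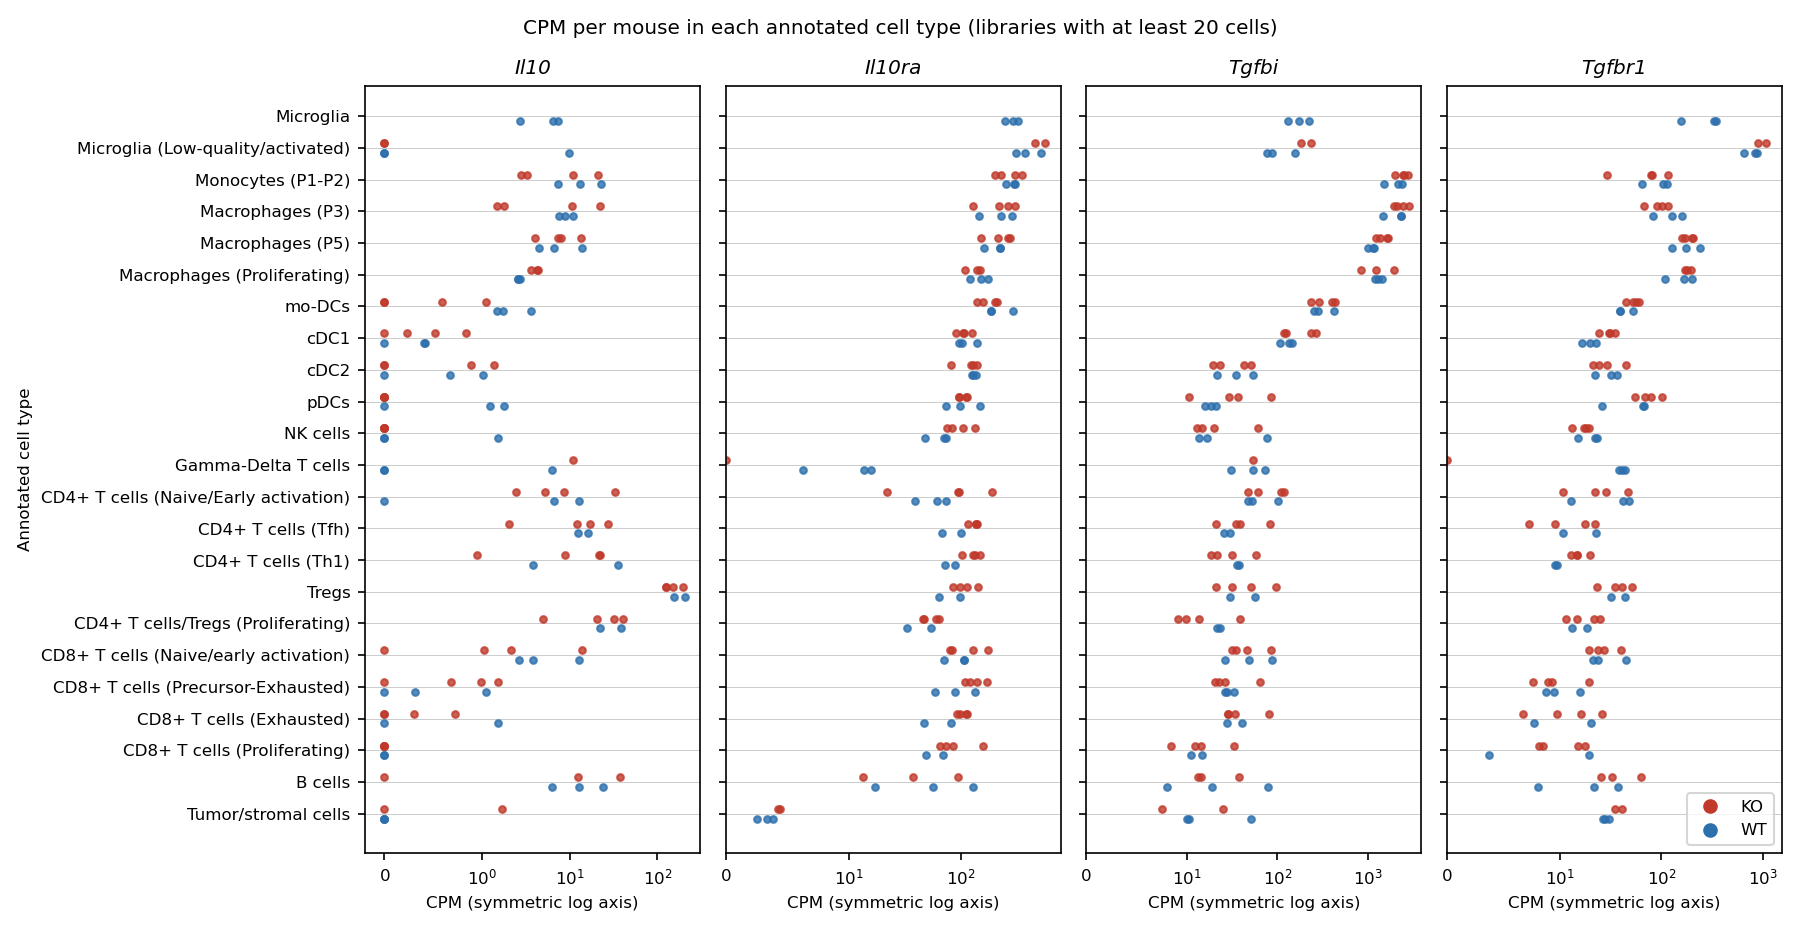
CPM in each mouse (points, KO red and WT blue, symmetric log axis) for Il10, Il10ra, Tgfbi and Tgfbr1 in the 23 cell types, for libraries with at least 20 cells of the type. The 6 Treg libraries lie above all others for Il10, the 4 monocyte and macrophage types for Tgfbi, and the low-quality microglia for Tgfbr1.

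Across the 23 types, the genes that varied most alike were Il10ra and Il10rb (Pearson r = 0.79 of log2(mean CPM + 1)) and Tgfbr2 and Smad7 (r = 0.78), while Il10 and Il10ra had r = 0.11 and Tgfbr1 and Tgfbr2 r = 0.39. These values describe 23 types that share 7 libraries and differ in depth. Among 9021 genes with a mean of at least 10 CPM, those among the 3 most like each member included Agpat2, Crlf2 and Cd53 for Tgfb1 (r = 0.815 to 0.792), Qk, Sipa1l2 and Ppp1r21 for Tgfbr1 (r = 0.952 to 0.945), and Macf1 and Mindy2 for Tgfbr2 (r = 0.868 and 0.836). For Tgfbi they were Lyz2, Lst1 and Sirpb1c (r = 0.980 to 0.962), for Smad3 Nt5dc3, Thoc2l and Trp53bp2 (r = 0.896 to 0.861), and for Smad7 Trip11, Itpr2 and Ccnl2 (r = 0.967 to 0.927). For Il10 they were Tspan32, Mtmr3 and Maf (r = 0.806 to 0.739), with Maf, a transcription factor that binds the Il10 locus in T cells, at 429 CPM in Tregs. For Il10ra they were Plek, Mtmr6 and Ptpn1 (r = 0.898 to 0.838), and for Il10rb Abi3 and Trf (r = 0.870 and 0.859). Every gene named for Tgfbr1, Tgfbr2, Smad3 and Smad7 was highest in the low-quality microglia, as were Plek, Mtmr6 and Abi3. The part of that type in these correlations was not tested.

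Whether these genes differed between the genotypes was asked in every cell type and class with at least 2 mice per genotype, by edgeR's quasi-likelihood test on UMIs summed per mouse, with Benjamini-Hochberg adjustment over all genes. None of the 9 genes passed an adjusted p of 0.05 in any of the 25 distinct fits (21 cell types and the 4 classes that join several types). Of 192 tests of a member gene, 23 (12.0%) had an unadjusted p under 0.05, beside 12110 of 210483 tests of any gene (5.75%); these tests share mice and cells, since a class contains its types. DESeq2, run on the same sums, called 1 member in 1 class, Il10ra in T cells. Few genes were called by edgeR at all, and the shares given next are those of edgeR alone. Counts of DESeq2 are given further on for some classes. In the classes, 0.0415% of genes were called in microglia, 0.0142% in NK cells, 0.0447% in pDCs, 0.0287% in tumour or stromal cells and 0% in monocyte-derived cells, mo-DCs, conventional dendritic cells, T cells and B cells. In the other cell types it was 0.213% in low-quality microglia, 0.0188% in macrophages P5, 0.0411% in Tregs, 0.0494% in proliferating CD4 T cells and Tregs, 0.0326% in Th1 cells, 0.0114% in Tfh cells, 0.0239% in naive CD8 T cells, 0.0135% in exhausted CD8 T cells and 0% in the remaining ones. Most members described next were picked for an unadjusted p under 0.05 after the values were seen; others, such as Il10, Tgfb1, Smad3 in T cells and Smad7 in microglia, did not pass it and are given beside them.

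**Figure D4:**
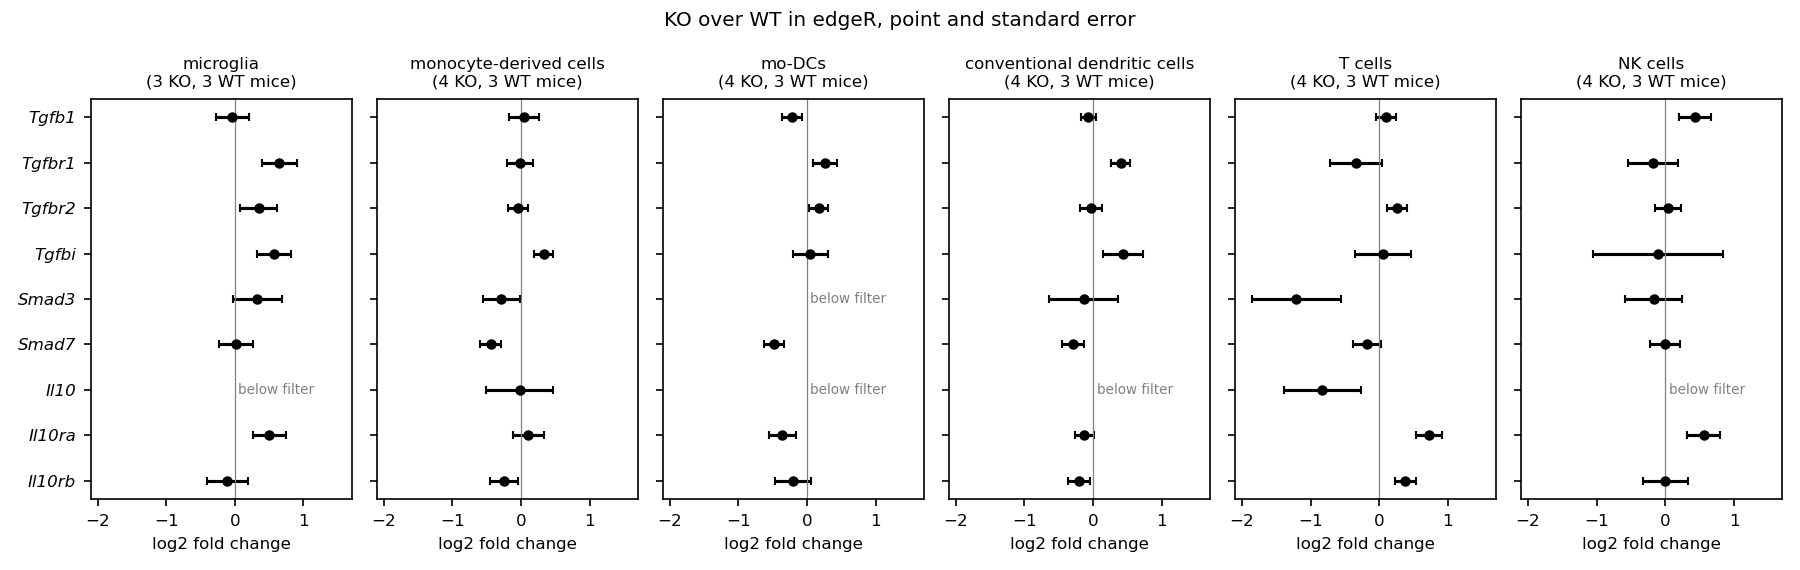
log2 fold change KO over WT (edgeR, point) with its standard error (bar) for the 9 genes in 6 classes. None passed the adjusted threshold; Il10ra in T cells lies at 0.73 and Smad7 at -0.44 and -0.48 in monocyte-derived cells and mo-DCs. Genes too sparse for the filter are marked.

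In T cells, Il10ra was at 102, 129, 154 and 95.9 CPM in KO replicates 1 to 4 and at 60.2, 85.8 and 74.5 CPM in WT replicates 1 to 3. All 4 KO values lay above all WT values. The log2 fold change was 0.73 (SE 0.19, adjusted p = 0.722 in edgeR, unadjusted p = 0.00341), and DESeq2 gave 0.72 with an adjusted p of 0.0302. DESeq2 called 38 genes higher and 41 lower in T cells, where edgeR called none. Il10ra was the only 1 of the 9 genes whose T cell values did not overlap, which held for 7.28% of the genes tested. The log2 fold change was above 0 in each of the 9 T cell types fitted, from 0.32 in proliferating CD4 T cells and Tregs to 0.88 in naive CD4 T cells. The unadjusted p in edgeR was 0.00327 in Th1, 0.00792 in Tfh and 0.0479 in naive CD4 cells, with adjusted p of 0.968 or more. The Th1 and Tfh fits had only 2 WT mice. WT replicate 1, left out of the Tfh fit with 18 cells, had 168 CPM there, above the 117 to 139 CPM of the KO mice. Left out of the Th1 fit with 8 cells, it had 39.5 CPM there, below every KO value. Single mice moved some of these fold changes: naive CD4 T cells had 0.45 without KO replicate 2, and Tfh cells 0.42 without WT replicate 3, with 1 WT mouse left. Gamma-delta T cells, low in Il10ra, made up 0.290 to 4.40% of the T cells of KO mice and 2.30 to 25.7% of those of WT mice. Precursor-exhausted CD8 T cells had the highest mean of Il10ra among the T cell types, with values that overlapped those of Tfh, Th1 and naive CD8 cells. They made up 23.5, 41.0, 53.8 and 33.1% of the T cells of KO replicates 1 to 4 and 6.75, 10.6 and 35.4% of those of WT replicates 1 to 3. The part of this mix in the class difference was not tested. In NK cells Il10ra was at 75.8, 105, 134 and 83.8 CPM in KO and 48.0, 70.3 and 73.8 CPM in WT mice, a log2 fold change of 0.56 (SE 0.24, adjusted p = 0.999). Il10rb in T cells had a log2 fold change of 0.38 (SE 0.15, adjusted p = 0.730), with overlapping values of 34.1 to 46.9 CPM in KO and 27.2 to 37.1 CPM in WT mice.

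Smad7 had lower KO means in the monocyte lineage. In monocyte-derived cells it was at 71.8, 69.1, 74.0 and 73.9 CPM in KO replicates 1 to 4 and at 86.0, 120 and 89.7 CPM in WT replicates 1 to 3. In mo-DCs it was at 101, 93.1, 83.4 and 89.5 CPM in KO and 134, 110 and 133 CPM in WT mice. In both classes every KO value lay below every WT value. The log2 fold changes were -0.44 (SE 0.15, adjusted p = 0.827) and -0.48 (SE 0.14, adjusted p = 0.541) in edgeR. They were -0.49 in monocytes, -0.47 in macrophages P3, -0.46 in macrophages P5 and -0.58 in proliferating macrophages, with adjusted p of 0.700 or more. The groups overlapped in monocytes, at 53.3 to 101 CPM in KO and 82.4 to 117 CPM in WT mice. They also overlapped in proliferating macrophages, at 33.4 to 89.1 CPM in the KO mice fitted and 56.4 to 136 CPM in WT mice. KO replicate 3, left out of that fit with 10 cells, had 172 CPM there, above every WT value. Without WT replicate 2 the value in monocyte-derived cells was -0.27 and that in monocytes -0.32. The summed CPM of a dissociation stress list (Fos, Jun, Junb, Egr1, Hspa1a, Hspa1b, Atf3) was 6985 to 14284 in the monocyte-derived cells of KO mice and 9603 to 14792 in those of WT mice, and its part in the difference was not tested. In microglia, Smad7 was at 327, 352 and 500 CPM in KO replicates 1, 2 and 4 and at 439, 355 and 374 CPM in WT mice, with a log2 fold change of 0.02 (SE 0.25). In conventional dendritic cells the log2 fold change of Smad7 was -0.30 (SE 0.16), in B cells -0.38 (SE 0.49) and in T cells -0.18 (SE 0.20). It was -0.12 in tumour or stromal cells (SE 0.24), -0.01 in NK cells (SE 0.22) and 0.21 in pDCs (SE 0.21). The groups overlapped in all of these classes.

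**Figure D5:**
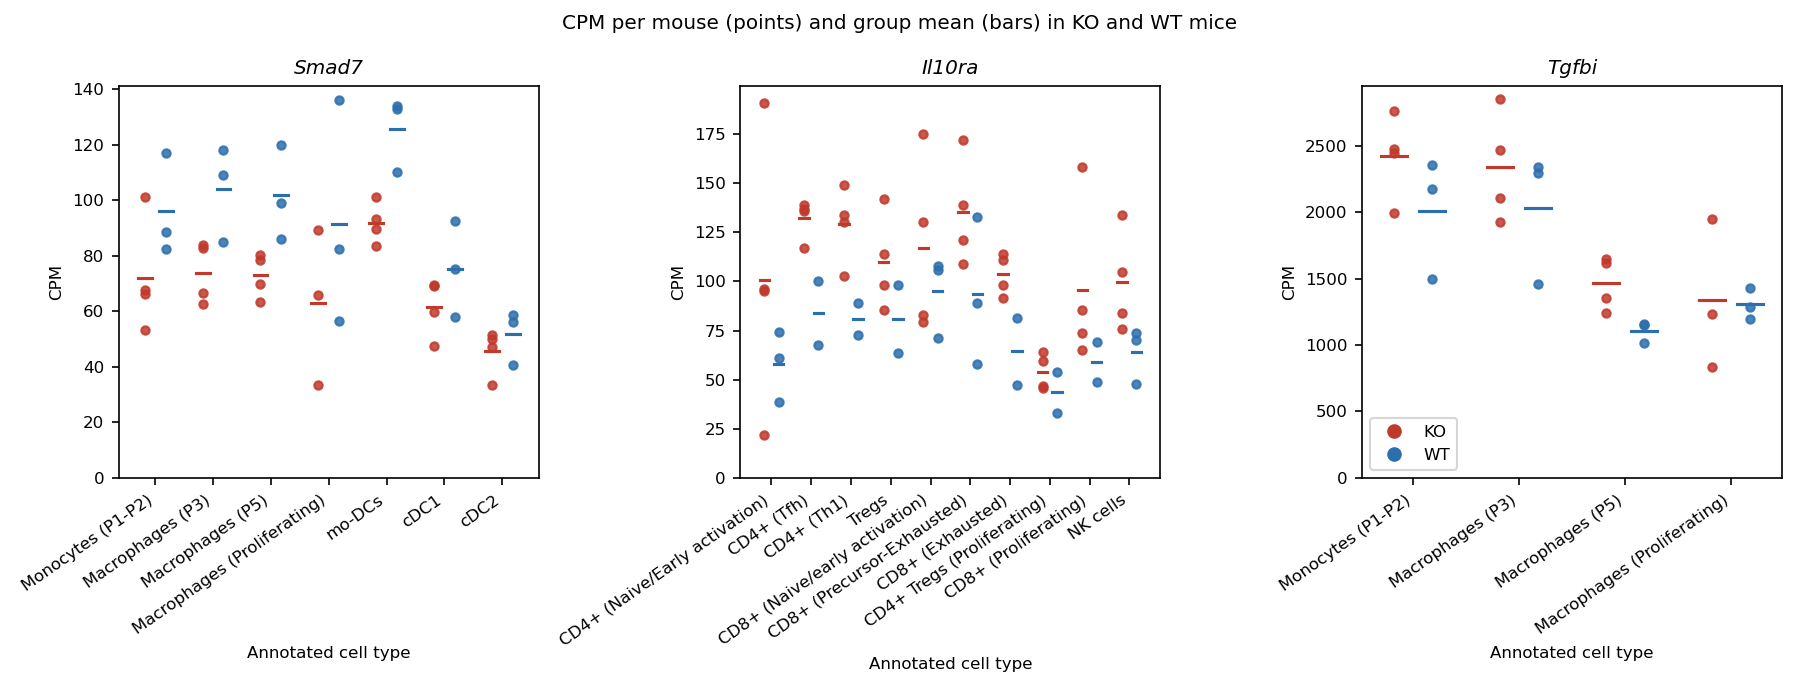
CPM in each mouse (points) and group mean (bars) of Smad7 in the monocyte and dendritic types, Il10ra in the fitted T cell types and NK cells, and Tgfbi in monocytes and macrophages, KO in red and WT in blue. In macrophages P5 the KO values of Smad7 lie below and those of Tgfbi above all WT values, and the KO values of Smad7 also lie below all WT values in macrophages P3 and mo-DCs.

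Tgfbi in monocyte-derived cells was at 1801, 1684, 2202 and 1841 CPM in KO replicates 1 to 4 and at 1662, 1603 and 1267 CPM in WT replicates 1 to 3. The lowest KO value lay just above the highest WT value, and the log2 fold change was 0.33 (SE 0.14, adjusted p = 0.873 in edgeR). In macrophages P5 it was 0.43 (SE 0.14, adjusted p = 0.700), with 1649, 1350, 1619 and 1239 CPM against 1161, 1148 and 1013 CPM. In the other types of the lineage the groups overlapped, with log2 fold changes of 0.23 in monocytes (SE 0.17), 0.21 in macrophages P3 (SE 0.21) and 0.07 in proliferating macrophages (SE 0.26), and adjusted p of 0.821 to 0.997 in edgeR. Smad7 and Tgfbi did not overlap in macrophages P5, where 7.32% of the genes tested had no overlap, and Smad7 did not in macrophages P3, where 6.42% had none. Smad7 and Tgfbi were the 2 of the 9 members without overlap in monocyte-derived cells, where 6.23% of the genes tested had none; in mo-DCs it was Smad7 alone of 7 members tested (8.12%). In pDCs, the log2 fold change of Tgfbi was 1.30 (SE 0.51, adjusted p = 0.711), with 86.2 CPM in KO replicate 2 and 10.6 to 36.5 CPM in the other 6 mice, and 0.68 without that mouse. None of the 8 members tested in conventional dendritic cells was without overlap (7.79% of genes); Tgfbr1 had a log2 fold change of 0.40 there (SE 0.14, adjusted p = 0.697) and of 0.59 in cDC1 (SE 0.16, adjusted p = 0.684).

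Microglia, the cells in which the driver acts, were few: 30, 21, 13 and 49 cells in KO replicates 1 to 4 and 113, 92 and 96 in WT mice. KO replicate 3, with 13 cells, was left out of the fit. Tgfbr1 was at 632, 861 and 578 CPM in the KO mice fitted and at 524, 457 and 289 CPM in the WT mice, a log2 fold change of 0.65 (SE 0.26, adjusted p = 0.297 in edgeR). Il10ra was at 429, 470 and 505 CPM against 374, 324 and 284 CPM (0.50, SE 0.24, adjusted p = 0.413), and Tgfbi at 252, 235 and 222 CPM against 202, 150 and 119 CPM (0.57, SE 0.25, adjusted p = 0.350). In these 3 of 8 members tested the groups did not overlap, beside 18.8% of all genes tested in microglia. KO replicate 3 had 921 CPM of Tgfbr1 (34 UMIs), 461 CPM of Il10ra (17 UMIs) and 81.3 CPM of Tgfbi (3 UMIs), the last below every WT value. The low-quality cells gave 38.6, 47.3 and 45.2% of the microglial UMIs in the KO mice fitted and 33.5, 24.8 and 27.2% in the WT mice. In every WT mouse these cells were higher in Tgfbr1 and lower in Tgfbi than the other microglia. The part of this mix in the class differences was not tested. Within the low-quality cells alone, with KO replicates 1 and 4 against 3 WT mice, the log2 fold change of Tgfbr1 was 0.30 (SE 0.30, adjusted p = 0.894), that of Il10ra 0.30 (SE 0.32, adjusted p = 0.912) and that of Tgfbi 0.86 (SE 0.41, adjusted p = 0.662). The genotype effects in microglia and in monocyte-derived cells were compared directly in the 6 mice with at least 20 cells of both: 0.523% of genes differed at an adjusted p under 0.05 in edgeR, and none of the 9 members did. For Tgfbr1 the difference of the log2 fold changes was 0.53 (SE 0.25, adjusted p = 0.401).

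Among the joined classes, Il10 itself could be tested in T cells and monocyte-derived cells. It was also tested in some single types, among them Tregs, monocytes and macrophages P3 and P5, and passed in none. In T cells it was at 13.9, 9.80, 9.44 and 13.4 CPM in KO and 7.09, 44.5 and 9.69 CPM in WT mice, a log2 fold change of -0.83 (SE 0.56, adjusted p = 0.828). The other WT values lay below the KO mean of 11.6 CPM, so the negative sign rests on WT replicate 2. That mouse also had the highest share of Tregs among its T cells, 16.4%, against 1.61 to 10.7% in the other mice. KO replicate 4, with 10.7%, had 13.4 CPM. The part of the Treg share in the T cell values was not tested. Within Tregs Il10 was at 126, 124, 193 and 149 CPM in KO replicates 1 to 4 and at 207 and 156 CPM in WT replicates 2 and 3, a log2 fold change of -0.33 (SE 0.21, adjusted p = 0.983); WT replicate 1 had only 5 Tregs. The share of Tregs with an Il10 UMI was 25.9, 21.9, 24.6 and 24.3% in KO replicates 1 to 4 and 36.2 and 35.7% in WT replicates 2 and 3. After thinning to 1500 UMIs it was 14.9 ± 2.83% in KO (n = 4) and 21.9 ± 0.626% in WT mice (n = 2). The groups did not overlap, and an exact permutation test, with the two-sided p taken as double the one-sided one, gave p = 0.133 for both. With 15 ways to split 4 mice against 2, such a test cannot reach 0.05 in either form, so it decides nothing here; this measure was chosen after the data were seen. In monocyte-derived cells the log2 fold change of Il10 was -0.02 (SE 0.49), with 3.88 to 17.2 CPM in KO and 6.78 to 10.6 CPM in WT mice. In mo-DCs Il10 was too sparse for the fit, with 4 UMIs in KO and 14 in WT mice.

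Smad3 in T cells had a log2 fold change of -1.21 (SE 0.65, adjusted p = 0.774). It was at 9.78, 5.57, 3.21 and 7.10 CPM in KO replicates 1 to 4 and at 33.1, 12.4 and 4.19 CPM in WT replicates 1 to 3. In WT replicate 1, with the highest value, gamma-delta T cells gave 24 of the 56 Smad3 UMIs. Tgfbr2 in Tregs had a log2 fold change of 0.49 (SE 0.23, adjusted p = 0.977), which was 0.92 without WT replicate 2 and 0.29 without WT replicate 3, each time with 1 WT mouse left. In tumour or stromal cells, with 2 KO mice, Smad3 (0.86, SE 0.30, adjusted p = 0.441) and Tgfbr2 (0.70, SE 0.24, adjusted p = 0.417) had unadjusted p under 0.05. KO replicate 1, left out of that fit with 17 cells, had 26.5 CPM of Tgfbr2, within the WT range of 22.7 to 26.7 CPM. Its Smad3, at 34.7 CPM, lay above every WT value. For Tgfb1 the log2 fold changes lay between -0.22 in mo-DCs and 0.43 in NK cells over the 9 classes, with adjusted p of 0.778 or more.

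The other genes of both pathways were read from lists of 45 TGF-beta and 25 IL-10 genes, and none passed the adjusted threshold of edgeR in any class. DESeq2 called 1 in T cells (Furin), 2 in microglia (Hmox1 among them), 1 in mo-DCs (Sbno2) and 1 in tumour or stromal cells (Thbs1). Over all genes DESeq2 called 38 higher and 41 lower in T cells, 13 and 13 in microglia, 11 and 38 in mo-DCs and 14 and 16 in tumour or stromal cells. In microglia 22 of the 45 TGF-beta genes were tested, with 3 at an unadjusted p under 0.05, all higher in KO, where 11.9% of all 4820 genes were under that value; the median log2 fold change was 0.27 against -0.00 over all genes. The share of low-quality cells in the microglial UMIs, given above, was also higher in the KO mice fitted, and its part in these list values was not tested. Among them were Tgif1, a Smad co-repressor (0.79, adjusted p = 0.285), and Ski, another (0.65, adjusted p = 0.347). Of the 16 IL-10 genes tested there, 3 had an unadjusted p under 0.05: Hmox1, heme oxygenase (-1.35, adjusted p = 0.260), Prdm1 (0.98, adjusted p = 0.320) and Zfp36, which degrades cytokine mRNA (0.51, adjusted p = 0.343).

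In monocyte-derived cells none of 34 TGF-beta genes and 2 of 20 IL-10 genes had an unadjusted p under 0.05, beside 5.64% of all genes, with median log2 fold changes of -0.11 and -0.04. The smallest p were those of Id1 (-0.67, adjusted p = 0.883), Nrros, which holds latent TGF-beta on myeloid cells (-0.36, adjusted p = 0.901), Pmepa1 (-0.39, adjusted p = 0.920), Maf (-0.48, adjusted p = 0.828), Etv3 (-0.32, adjusted p = 0.828) and Il27 (-0.59, adjusted p = 0.883). In T cells, 2 of 37 TGF-beta and 2 of 19 IL-10 genes had an unadjusted p under 0.05, beside 6.56% of all genes. The list genes under that value had lower KO means, with list medians of -0.14 and -0.21 against 0.01 over all 13044 genes. They included Furin, which cleaves the TGF-beta precursor (-1.01, adjusted p = 0.722), Inhba (-1.31, adjusted p = 0.722) and Hmox1 (-0.42, adjusted p = 0.730), followed by Tgfbr3 (0.45, adjusted p = 0.773) and Bcl3 (-0.60, adjusted p = 0.774).

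In mo-DCs, 3 of 32 TGF-beta and 3 of 18 IL-10 genes had an unadjusted p under 0.05, all lower in KO, where 7.60% of all genes did. In tumour or stromal cells, with 2 KO mice, 7 of 34 TGF-beta genes did, all higher in KO, and 5 of 13 IL-10 genes, 3 of them higher, where 8.58% of all genes did. Conventional dendritic cells had 2 of 33 TGF-beta genes and 1 of 20 IL-10 genes under that value (6.95% of all genes), pDCs 1 of 19 and 2 of 13 (6.39%), and NK cells and B cells none (4.10% and 0.968%).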

How the data were processed

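Single-cell 5′ libraries of 7 mice were analysed from the matrix of expected counts (UMIs per gene and cell) that the authors deposited. Per the submitters' processing notes, the tools were FastQC 0.11.5, STARsolo and STAR 2.7.10a with build mm10; cell filters and doublet handling are not given in the sources used here. In the deposited expected counts, 7.51% of non-zero values were not whole. The authors' deposited cell table also gives counts of detected genes and the percent of mitochondrial UMIs per cell; its tSNE scores, also deposited by the authors, were not used. Sums per mouse and cell type were rounded. Libraries with at least 20 cells entered edgeR 4.0.16 (TMM, filterByExpr, robust quasi-likelihood, genotype as the only term). The fit was checked on simulated data, with changes larger than most reported here, so smaller ones were not covered. SE is the log2 fold change divided by the root of F. DESeq2 1.42.0 was an alternative. The genes named beside the members are pathway list genes with the 3 smallest p per list in microglia, monocyte-derived cells and T cells, and the 3 genes most correlated with a member; some genes that meet this rule are not reported here. The members and lists were chosen with earlier results of these data known. Motifs were scanned in the member promoters before the set printed was settled. Positions are from GENCODE M21 (GRCm38). Replicates are separate mice. The replicate numbers were not treated as pairs in the main fit. Same-numbered mice correlated at -0.22 to 0.14 in 3 classes. Each same-numbered KO and WT mouse differed in sex, so these correlations do not settle whether the numbers mark pairs. Alternatives were other size factors, no filter, the replicate block, sex (read from Xist and Y-linked genes), whole values only, other cell minimums and each mouse left out.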

Additional observations from a re-analysis of the deposited data

Results flagged for a closer look

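In 4 of the 48 sets of 4 KO mice tested, 1 mouse stood apart from the other 3 by Dixon's gap test at its 95% critical value; chance flags about 1 set in 20. Tgfbi in NK cells was at 61.2 CPM in KO replicate 2 and at 13.1, 14.9 and 20.1 CPM in the others, and WT replicate 1 had 77.5 CPM. Lyz2 in the T, NK and B cells was at 310 CPM in KO replicate 2 and 273 CPM in WT replicate 1, against 48.3 to 140 CPM in the other KO mice. The part of free RNA was not tested. Tgfbr2 in conventional dendritic cells was at 19.8 CPM in KO replicate 1 and at 29.9, 31.2 and 31.9 CPM in the others. Il10rb in mo-DCs was at 59.4 CPM in KO replicate 4 and at 33.6, 35.1 and 35.8 CPM in the others, and WT replicate 1 had 62.9 CPM. Il10rb in pDCs was at 154 CPM in KO replicate 3, from 23 cells, and at 91.9, 96.2 and 97.1 CPM in the others.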

How the results depend on the processing

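The count of members called stayed at 0 in all 295 alternatives over the 21 cell types, in 126 of 127 over the 9 classes and in all 10 of the comparison of microglia with monocyte-derived cells. The exception was DESeq2 in T cells, with 1 call (Il10ra); over its 15 alternatives the log2 fold change of Il10ra was 0.59 to 0.84 and the adjusted p 0.0302 to 1.00. With the replicate block, no member passed, and Il10ra in T cells had 0.84 (adjusted p = 0.338). For the pathway lists the count differed from 0 in 13 of 127 alternatives, and the cause was not tested. DESeq2 called 1 gene in T cells (Furin), 2 in microglia (Hmox1 among them), 1 in mo-DCs (Sbno2) and 1 in tumour or stromal cells (Thbs1). Without the filter, edgeR called 1 in microglia (Hmox1), 3 in mo-DCs (Id3 and Sbno2 among them), 1 in pDCs and 1 in tumour or stromal cells (Thbs1). The replicate block gave 1 in microglia (Il1rn) and 1 in pDCs. Leaving out 1 mouse gave 0 to 1 in microglia (1 without KO replicate 2 or without KO replicate 4) and 0 to 1 in tumour or stromal cells (1 without KO replicate 4), where the lone KO mouse is assumed to vary like the others. The level of each member in its highest type moved by less than 1 SD in all 66 alternatives. Few cells limit the microglia, whose KO libraries held 21 to 49 cells in the fit, and the tumour or stromal cells, with 2 KO mice.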
